A study of Mus musculus with 12 samples.

Results

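The 6 h response of IL4-stimulated mouse macrophages to all-trans retinoic acid (RA), the active form of vitamin A, was described across genes. It was read from 6 of the 12 RNA-seq libraries of the study, and from 12116 of the 13553 genes of the deposited table. A gene was tested when it reached 0 log2 CPM (the logarithm of the reads of a gene as a share of a library's reads, in parts per 1e6, normalized between libraries) in at least 3 of the 12 libraries.

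The cells were macrophages grown from the bone marrow of wild-type male C57BL/6 mice with 10 ng/mL of M-CSF, the growth factor that macrophages depend on. The IL4 RA group (3 libraries) received IL4 at 20 ng/mL for 24 h, was washed, and was then exposed to 1 µM RA for 6 h. The IL4 vehicle group (3 libraries) had the same IL4 exposure and wash and then DMSO, the solvent. The other 6 libraries are 3 naive RA and 3 naive vehicle libraries, which had no IL4. Libraries carry the replicate numbers 2, 3 and 4, and values below are given in that order. Nothing in the labels ties a replicate to its own mouse or dish, and the p-values therefore speak of the spread among these 12 libraries, which may be technical.

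RA enters the nucleus and binds the retinoic acid receptors, which sit on DNA as dimers with retinoid X receptors and switch from repressors to activators when RA binds. Their classical sites are pairs of short repeats, and among their best known target genes is a receptor gene, Rarb, together with genes that clear RA. IL4 drives macrophages through the transcription factor STAT6 into the alternatively activated state, marked in the mouse by Arg1, Retnla and Chil3.

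The libraries held the macrophage genes at high levels in both groups. Csf1r, the M-CSF receptor, measured 11.75, 11.64 and 11.66 log2 CPM in the IL4 RA libraries and 11.59, 11.58 and 11.62 in the IL4 vehicle libraries. Retnla, a secreted protein that IL4 induces, measured 7.60, 7.72 and 7.27 log2 CPM in the IL4 vehicle libraries, against -3.33, -2.51 and -3.67 in the naive vehicle libraries, so the IL4 label was borne out by its marker. Of the 12 tested fibroblast and endothelial markers, 0 were called higher and 1, Kdr, was called lower, a call lost without IL4 RA replicate 3 or 4 or IL4 vehicle replicate 2 or 3. Their summed level was 154 to 181 CPM in the IL4 RA libraries and 158 to 163 CPM in the IL4 vehicle libraries. The T and NK cell list had 4 tested members and the neutrophil list 6, with none called in either list. The few marker genes called higher were Sdc1 and Blnk of 3 B and plasma cell markers, Ccr3 of 7 mast cell, basophil and eosinophil markers, Batf3 of 8 dendritic cell markers and Pf4 of 3 erythroid and megakaryocyte markers. Batf3 was not called without IL4 RA replicate 3 or 4 or IL4 vehicle replicate 2 or 3 (adjusted p = 0.15, 0.0525, 0.125 and 0.0678). Cd3e, Ly6g, Epx and Cpa3, the defining genes of T cells, neutrophils, eosinophils and mast cells, were not analysed here. In bulk RNA, fewer cells of a kind and less RNA per cell cannot be told apart. 1 library stood apart in a gene group that matters below: IL4 vehicle replicate 4 had lower interferon-inducible genes than the other IL4 vehicle libraries, and results on those genes are given with and without it.

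RA changed 1416 genes in IL4 macrophages (limma, Benjamini-Hochberg adjusted p under 0.05, a threshold named "called" below), which is 11.7% of the genes tested. Of these, 788 were higher (6.5% of genes tested) and 628 were lower (5.18%). Both shares are the background for the counts of called list members from this fit. Other fits have other backgrounds. Without IL4 RA replicate 3, 549 genes were called higher and 345 lower, and without IL4 vehicle replicate 3, 634 and 373. With the replicate number as a block over 12 libraries they were 921 and 743. The gene lists were written with earlier results of these data known, so an excess over these shares may be partly built in. Large changes were mostly rises: 81 genes rose by at least 1 on the log2 scale and 15 by at least 2. Of the falls, 14 were of at least 1 and 0 of at least 2. Under 2 log2 CPM in IL4 vehicle, 97 genes were called higher and 21 lower. At 6 to 8 the counts were 218 and 246, and at 8 or more 57 and 74. The part of low vehicle levels in the large rises was not tested. With each library centred on its median 711 genes were called higher and 752 lower. With the replicate block over the 6 IL4 libraries the counts were 761 and 769. Most changes were small, with a median of 0.33 among genes called higher and -0.27 among genes called lower. The filter had a part in these counts: 10 of the 81 genes and 4 of the 15 reached 0 log2 CPM in fewer than 3 libraries outside the IL4 RA group, and 4 of the 14 in fewer than 3 outside the IL4 vehicle group. Such genes entered the test only through the group where they were high, which favours a difference. In all, 108 tested genes entered through the IL4 RA group in this way, and 12 of them were called higher. Through the IL4 vehicle group 121 entered, and 4 of them were called lower. Those named below are Card10, Ntn4, Cebpe and Timd4, whose values are given with no p. The 3 libraries of each group did not overlap in 1399 of the 1416 called genes, and in 27.9% of all genes tested. The count of genes called lower was 345 without IL4 RA replicate 3, 373 without IL4 vehicle replicate 3, and the total was 894 without IL4 RA replicate 3.

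**Figure D1:**
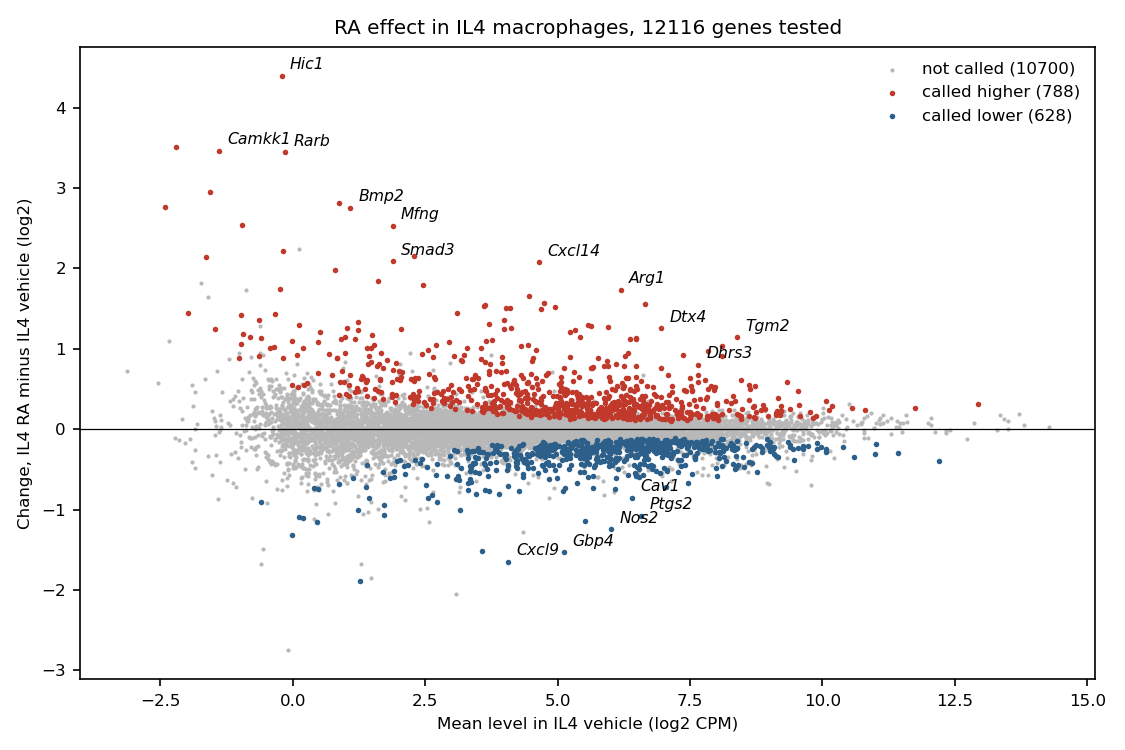
Change with RA in IL4 macrophages (log2, IL4 RA minus IL4 vehicle, vertical axis) against the mean level in the 3 IL4 vehicle libraries (log2 CPM, horizontal axis), 1 point per tested gene, red for the 788 genes called higher and blue for the 628 called lower. The called rises reach 4.40 for Hic1, while 0 called falls reach 2; Cxcl9 fell by 1.65.

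The RA receptors and the RA-clearing enzymes were the first group examined. Rarb, the RA receptor beta gene, measured 3.15, 3.46 and 3.31 log2 CPM in the IL4 RA libraries, against -0.29, 0.22 and -0.36 in the IL4 vehicle libraries. The groups were far apart, and the rise was 10.9-fold (log2 change 3.45 ± 0.23 SE, adjusted p = 4.09e-07, limma). Of the other receptors, Rara (-0.04, adjusted p = 0.783) and Rxra (0.09, adjusted p = 0.339) were not called, so the receptors moved unequally. Rarg was called higher with a small change, 0.21 (adjusted p = 0.0374), and this call did not hold without IL4 RA replicate 2 (0.06), IL4 RA replicate 3 (0.147), IL4 RA replicate 4 (0.0528), IL4 vehicle replicate 2 (0.131) or IL4 vehicle replicate 4 (0.0936), the values in brackets being adjusted p.

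The 250 bases before the Rarb start were the only ones among genes called higher that held a classical RA response element. The sequence is shown because the element lies close to the start of the receptor gene that rose most. It is the RefSeq promoter of Rarb at chr14:16575477-16575726 on the minus strand of GRCm38.p6, with the element in capitals, at positions -53 to -37 from the gene's start.
Rarb: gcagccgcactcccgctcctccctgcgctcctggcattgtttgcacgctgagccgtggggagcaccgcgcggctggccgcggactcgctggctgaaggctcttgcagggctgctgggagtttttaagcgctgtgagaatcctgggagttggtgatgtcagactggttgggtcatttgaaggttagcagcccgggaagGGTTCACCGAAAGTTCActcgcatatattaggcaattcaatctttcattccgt

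The search used 2 repeats in the same direction with 5 bases between, on both strands, where a repeat was AGGTCA (the consensus), GGGTCA (a variant), AGTTCA (another variant) or GGTTCA (the last one accepted). It matched 4 of the 9643 tested genes with a promoter (0.041%) and 1 of the 617 called higher, Rarb. A spacing of 2 bases matched 8 promoters (0.083%) and a spacing of 1 base matched 20 (0.207%), and 0 of either set were in genes called higher. The Rarb element overlaps a match to the interferon pattern TTC, 3 free bases and GAA, which begins at -51. A match is a description of letters in this window, and other RefSeq starts of a gene were not searched.

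Of the 16 tested genes of retinoid synthesis, storage and clearance 3 were called higher and 1 lower, with a median of -0.01. Cyp26b1, an RA hydroxylase, measured 0.87, -0.15 and 0.35 log2 CPM in the IL4 RA libraries and -2.38, -2.24 and -2.61 in the IL4 vehicle libraries. Its change was 2.77 ± 0.32 (adjusted p = 7e-05, limma), and 1.38 when the values were taken as log2(CPM + 0.5), since its vehicle level was near the lowest value of the table. Dhrs3, which turns retinaldehyde back into retinol, measured 8.41, 8.50 and 8.46 log2 CPM in the IL4 RA libraries and 7.65, 7.64 and 7.66 in the IL4 vehicle libraries. With a change of 0.80 ± 0.04 (adjusted p = 2.16e-08) it was a small and even shift, without overlap. Nrip1, a corepressor that binds ligand-loaded receptors, measured 5.41, 5.20 and 5.08 log2 CPM in IL4 RA and 3.90, 4.03 and 4.02 in IL4 vehicle libraries, a change of 1.25 (adjusted p = 2.07e-07).

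As a group, the list of retinoid receptors and coregulators had 5 of 16 tested members called higher and 1 lower, with a median change of 0.07. The same median over all genes tested was 0.00. The count of higher members was 3 without IL4 RA replicate 3, without IL4 RA replicate 4, without IL4 vehicle replicate 2 or without IL4 vehicle replicate 4. The 1 member of the synthesis, storage and clearance list that was called lower was not called when any 1 of the 6 libraries was left out.

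The largest rise belonged to Hic1, a zinc finger transcriptional repressor on chromosome 11. It stood at 4.18, 4.32 and 4.07 log2 CPM in the IL4 RA libraries, against -0.01, -0.43 and -0.20 in the IL4 vehicle libraries. Camkk1, a kinase that activates calmodulin-dependent kinases, stood at 2.17, 2.04 and 1.99 against -1.60, -1.45 and -1.15. Both genes were low with vehicle and clearly higher with RA, and the fitted changes were 4.40 ± 0.22 and 3.47 ± 0.18 (adjusted p = 2.16e-08 and 3.12e-08).

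Ntn4, a laminin-related secreted protein of basement membranes, measured 1.25, 1.48 and 1.46 log2 CPM with RA and -1.71, -1.45 and -1.52 with vehicle. Its change of 2.96 ± 0.33 was 1.90 on the log2(CPM + 0.5) scale. Card10, a scaffold that links receptors to NF-kB, measured 1.38, 1.43 and 1.12 log2 CPM with RA and -2.03, -2.28 and -2.31 with vehicle. Its change was 3.51 ± 0.33, or 2.06 on the log2(CPM + 0.5) scale. Both were scarce transcripts that reached 0 log2 CPM in the IL4 RA libraries alone, and their fold depends on how low values are treated.

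Myeloid differentiation genes held 2 of the largest rises. Pram1, an adaptor protein known as a target of RA in promyelocytic leukaemia cells, measured 3.78, 3.77 and 3.54 log2 CPM in the IL4 RA libraries and 0.77, 1.00 and 0.86 in the IL4 vehicle libraries, a 7.05-fold rise (adjusted p = 4.56e-10). Cebpe, the transcription factor of late granulocyte maturation, measured 1.79, 2.30 and 2.02 log2 CPM with RA and -0.15, -0.52 and 0.12 with vehicle (change 2.22 ± 0.26). The list of myeloid and granulocyte differentiation nevertheless had a median change of -0.01, with 5 of 34 tested members, Cebpe included, called higher and 0 lower, so the rise was that of single members. That count was 3 without IL4 RA replicate 3 or IL4 vehicle replicate 3, and 2 without IL4 vehicle replicate 4. With the replicate number as a block 1 member was called lower, and without IL4 RA replicate 3 there were 2.

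BMP and TGF-beta signalling genes moved in both directions. Bmp2, a secreted growth factor of this family, measured 4.00, 3.72 and 3.82 log2 CPM in the IL4 RA libraries and 1.26, 1.04 and 0.97 in the IL4 vehicle libraries, a 6.76-fold rise (adjusted p = 9.22e-10). Smad3, which carries the TGF-beta signal to the nucleus, measured 4.13, 3.77 and 4.04 log2 CPM with RA and 1.75, 1.92 and 2.01 with vehicle, a change of 2.09 ± 0.09 (adjusted p = 8.43e-09). Each IL4 RA library lay well above every IL4 vehicle library for both genes.

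Ltbp3, which holds latent TGF-beta in the matrix, rose by 1.28 (adjusted p = 2.97e-07), Smad1, a transducer of BMP signals, by 0.36 (adjusted p = 0.000271), and Tgfbr2, a TGF-beta receptor chain, by 0.32 (adjusted p = 0.00216). In the whole list 5 of 40 tested members were called higher and 6 lower, with a median of 0.01. The lower members included the receptor genes Tgfbr1 (-0.28) and Bmpr2 (-0.22) and Id1 (-0.44), a target of BMP signals. The lower count was 2 without IL4 RA replicate 3 or IL4 vehicle replicate 2, and 3 without IL4 vehicle replicate 3 or IL4 vehicle replicate 4.

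The Notch pathway, in which a ligand on one cell activates a receptor on its neighbour that proteases then cut, had 9 of 29 tested members called higher and 1 lower, beside 6.5% and 5.18% of all genes tested. Mfng, a fringe glycosyltransferase that changes which ligands Notch receives, measured 4.40, 4.58 and 4.27 log2 CPM in the IL4 RA libraries and 1.89, 1.84 and 1.92 in the IL4 vehicle libraries. It rose 5.79-fold (log2 change 2.53 ± 0.08, adjusted p = 4.56e-10), with little spread in either group. Dtx4, a ubiquitin ligase of the pathway, measured 8.23, 8.20 and 8.19 log2 CPM with RA and 6.87, 6.997 and 6.99 with vehicle, a change of 1.26 ± 0.05 (adjusted p = 1.74e-09).

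Lfng, another fringe enzyme, rose by 0.76 (adjusted p = 8.26e-07). The protease Adam10, which makes the first activating cut in Notch, rose by 0.47 (adjusted p = 4.62e-06). The receptor Notch1 rose by 0.42 (adjusted p = 0.004) and Rbpj, the DNA-binding partner of cleaved Notch, by 0.24 (adjusted p = 0.00141). The ligand Jag1 was the 1 member called lower, with 4.54, 4.47 and 4.31 log2 CPM in IL4 RA libraries and 4.83, 4.81 and 4.64 in IL4 vehicle libraries (adjusted p = 0.00542), and 2 members were called lower without IL4 RA replicate 2.

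**Figure D2:**
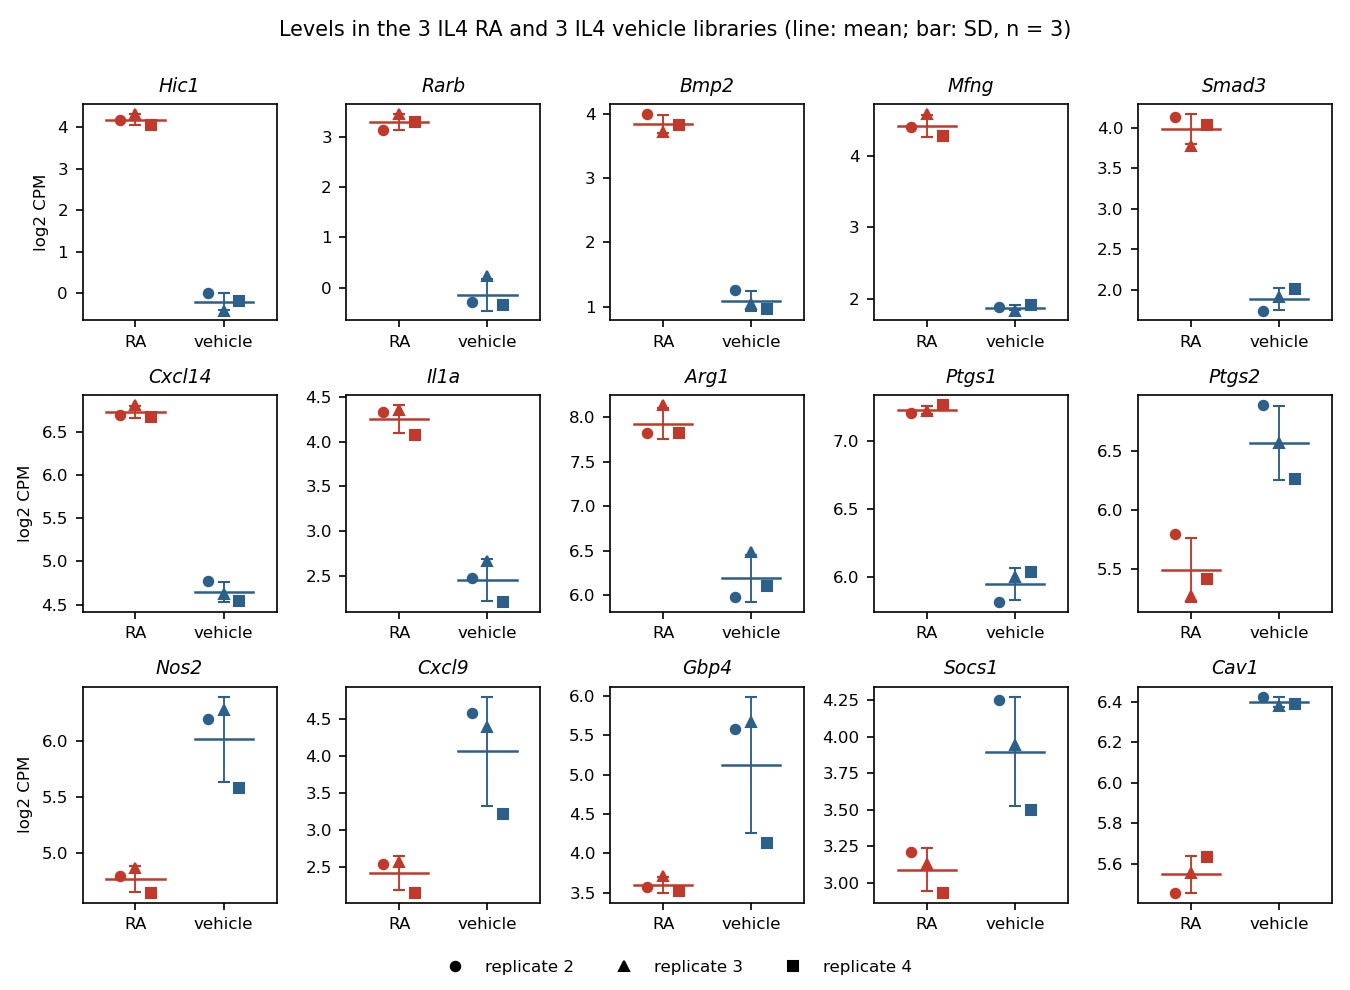
Levels (log2 CPM) of 15 genes in each of the 3 IL4 RA libraries (red, left) and 3 IL4 vehicle libraries (blue, right), with the symbol giving the replicate number, a line for the mean and a bar for the SD (n = 3 each); each panel has its own vertical scale. The groups do not overlap in any panel, and for Nos2, Cxcl9, Gbp4 and Socs1 IL4 vehicle replicate 4 is the lowest of the vehicle libraries.

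Among chemokines, the secreted proteins that attract leukocytes, 6 of 25 tested members were called higher and 1 lower, with a median change of 0.15. The shares over all genes tested were 6.5% and 5.18%. Cxcl14 measured 6.70, 6.81 and 6.68 log2 CPM in the IL4 RA libraries and 4.77, 4.62 and 4.55 in the IL4 vehicle libraries, a change of 2.08 ± 0.06 (adjusted p = 4.56e-10). Its libraries were tightly grouped and far apart. Next came 4 genes of a chemokine cluster on chromosome 5. The neutrophil attractant Cxcl3 measured 5.78, 5.58 and 5.25 log2 CPM with RA and 4.28, 4.10 and 3.71 with vehicle (change 1.51 ± 0.17, adjusted p = 5.12e-05). Its neighbour Pf4, platelet factor 4, measured 5.81, 5.59 and 5.33 log2 CPM with RA and 5.00, 4.48 and 4.30 with vehicle (0.98, adjusted p = 0.00247).

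Cxcl2, also a neutrophil attractant, measured 6.86, 6.81 and 6.59 log2 CPM with RA and 6.26, 5.97 and 5.65 with vehicle (0.79 ± 0.11, adjusted p = 0.000525). Replicate 2 was the highest library of its group for Pf4, Cxcl2 and Cxcl3, in both groups. Cxcl1, of the same kind, measured 2.89, 2.33 and 2.62 log2 CPM with RA and 2.27, 1.42 and 1.30 with vehicle. Its change of 0.95 (adjusted p = 0.0244) was not called without IL4 RA replicate 2 (0.0809), IL4 RA replicate 4 (0.0663), IL4 vehicle replicate 3 (0.0967) or IL4 vehicle replicate 4 (0.0963). With the replicate number as a block over the 6 IL4 libraries alone, 12 chemokines were called higher and 3 lower, and with the block over 12 libraries 2 were called lower. The lower count was also 2 without IL4 RA replicate 2 or without IL4 vehicle replicate 4.

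The promoters of the 3 CXC genes are shown because they share a match to an NF-kB pattern at similar places, although most NF-kB driven genes did not rise. The 120 bases before each start come from RefSeq on GRCm38.p6, plus strand, at chr5:90891125-90891244, chr5:90903779-90903898 and chr5:90785981-90786100, with the match to GGGA, any base and TTTCC in capitals, at positions -71 to -62, -97 to -88 and -73 to -64.
Cxcl1: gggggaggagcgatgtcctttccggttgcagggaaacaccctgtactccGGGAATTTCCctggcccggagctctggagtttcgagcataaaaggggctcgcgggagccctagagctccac
Cxcl2: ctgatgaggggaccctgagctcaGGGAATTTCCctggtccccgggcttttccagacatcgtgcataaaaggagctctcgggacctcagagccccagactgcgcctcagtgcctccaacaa
Cxcl3: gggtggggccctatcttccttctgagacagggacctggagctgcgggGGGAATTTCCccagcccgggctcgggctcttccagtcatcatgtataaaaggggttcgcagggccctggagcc

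In the 250 bases before the start, this pattern, searched on both strands, was in 51 of 9643 promoters (0.529%), in 7 of the 617 of genes called higher (1.13%) and in 5 of the 503 of genes called lower (0.994%). It was therefore about as common on the side that fell as on the side that rose.

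Receptors for chemokines and other attractants rose in part, with 7 of 22 tested members called higher and 1 lower and a median of 0.12. C5ar1, the receptor for the complement fragment C5a, measured 7.76, 7.75 and 7.78 log2 CPM in IL4 RA libraries and 7.15, 6.99 and 7.13 in IL4 vehicle libraries (change 0.67, adjusted p = 1.34e-07). Ccr3, the eotaxin receptor, rose by 0.64 (adjusted p = 0.000244) and S1pr1, a receptor for sphingosine 1-phosphate, by 0.59 (adjusted p = 0.000579). Without IL4 vehicle replicate 3, 4 members were called higher.

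Prostaglandin genes split between the 2 cyclooxygenases. Ptgs1, the constitutive cyclooxygenase, measured 7.20, 7.22 and 7.26 log2 CPM in the IL4 RA libraries and 5.82, 6.00 and 6.04 in the IL4 vehicle libraries (change 1.28 ± 0.06, adjusted p = 1.18e-08). Ptgs2, the inducible one, measured 5.80, 5.27 and 5.42 log2 CPM with RA and 6.89, 6.57 and 6.26 with vehicle (change -1.08 ± 0.15, adjusted p = 0.000303). The groups did not overlap for either gene, and the directions were opposite.

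Downstream, the thromboxane synthase Tbxas1 rose by 0.49 (adjusted p = 4.51e-05), the prostaglandin E synthase Ptges by 0.40 (adjusted p = 0.00488) and the prostaglandin E receptor Ptger2 by 0.48 (adjusted p = 0.00123). In all, 7 of 28 tested eicosanoid genes were called higher and 1 lower, with a median of 0.04. Lower members numbered 3 without IL4 RA replicate 4, 2 without IL4 vehicle replicate 4, and 2 with the replicate block over the 6 IL4 libraries.

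The arginine-using enzymes Arg1 and Nos2 also moved apart. Arg1, the arginase that marks IL4 macrophages, measured 7.82, 8.13 and 7.82 log2 CPM with RA and 5.99, 6.49 and 6.10 with vehicle (change 1.74 ± 0.17, adjusted p = 1.45e-05). Nos2, which makes nitric oxide from arginine, measured 4.80, 4.87 and 4.65 log2 CPM with RA and 6.19, 6.27 and 5.58 with vehicle (change -1.24 ± 0.23, adjusted p = 0.00284). Gatm, which uses arginine to begin creatine synthesis, rose by 0.81 (adjusted p = 1.89e-06). The arginine and polyamine list as a whole was balanced, with 3 of 29 tested members called higher and 3 lower and a median of 0.01. Over all genes tested the shares were 6.5% and 5.18%. With the replicate block over the 6 IL4 libraries 5 members were called lower.

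The alternative activation programme did not rise as a whole in the fit over 12 libraries without a replicate block. Of its 45 tested genes 4 were called higher and 4 lower, beside 6.5% and 5.18% of all genes tested, with a median change of 0.03. Besides Arg1 and Ptgs1, the transglutaminase Tgm2 was called higher, with 9.68, 9.49 and 9.45 log2 CPM in IL4 RA libraries and 8.46, 8.40 and 8.30 in IL4 vehicle libraries (change 1.15, adjusted p = 8.39e-08). Retnla measured 7.64, 8.08 and 7.52 log2 CPM with RA and 7.60, 7.72 and 7.27 with vehicle (change 0.22, adjusted p = 0.714), and the groups overlapped.

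Chil3, a chitinase-like protein, measured 7.53, 7.86 and 7.46 log2 CPM with RA and 7.53, 7.81 and 7.42 with vehicle (0.03, adjusted p = 0.967). Mrc1, the mannose receptor, measured 7.55, 7.31 and 7.45 with RA and 7.58, 7.44 and 7.57 with vehicle (-0.09, adjusted p = 0.469). The chemokine Ccl17 was higher in every IL4 RA library, 5.32, 5.80 and 5.39 log2 CPM against 4.80, 5.07 and 4.55, and missed the threshold (0.70, adjusted p = 0.139); it was called on the log2(CPM + 0.5) scale (adjusted p = 0.00573). Replicate 3 was the highest library of its group for Retnla, Chil3 and Ccl17 in both groups. With the replicate number as a block over the 6 IL4 libraries alone, 13 members were called higher and 8 lower, among them Ccl17 (adjusted p = 0.000169), Retnla (0.0446) and the lectin Mgl2 (change 0.18, adjusted p = 0.0442); with the block over 12 libraries 8 were called higher.

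Part of the interferon-gamma targets fell with RA. Of 41 tested, 11 were called lower and 1 higher, beside 5.18% and 6.5% of all genes tested, 38 had a negative change, and the median was -0.44 against 0.00 over all genes tested. Cxcl9, a T cell attractant, measured 2.54, 2.57 and 2.15 log2 CPM in IL4 RA libraries and 4.59, 4.39 and 3.22 in IL4 vehicle libraries (change -1.65 ± 0.30, adjusted p = 0.00307). Gbp4, a guanylate-binding protein of defence against intracellular microbes, measured 3.57, 3.71 and 3.52 with RA and 5.58, 5.67 and 4.13 with vehicle (-1.53 ± 0.33, adjusted p = 0.00914). In both genes IL4 vehicle replicate 4 was the lowest vehicle library and still lay above every IL4 RA library.

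Gbp5 measured 6.99, 6.69 and 6.70 log2 CPM with RA and 7.69, 7.58 and 7.14 with vehicle (-0.67 ± 0.14, adjusted p = 0.0058). The transcription factor Irf1 measured 8.13, 8.003 and 8.02 with RA and 8.74, 8.50 and 8.32 with vehicle (-0.47, adjusted p = 0.0066). Socs1, which limits cytokine signals and is induced by both IL4 and interferon, measured 3.21, 3.13 and 2.93 with RA and 4.25, 3.94 and 3.50 with vehicle (-0.81 ± 0.18, adjusted p = 0.00895). Clic5, a chloride channel family protein outside this list, had the same shape, 2.29, 2.22 and 1.67 log2 CPM with RA and 3.89, 4.13 and 2.71 with vehicle (-1.52, adjusted p = 0.00722).

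Other members were less certain. Iigp1, an immunity-related GTPase, changed by -1.14 (adjusted p = 0.0169) and Gbp7 by -0.72 (adjusted p = 0.0146). Neither was called without IL4 RA replicate 4 (adjusted p = 0.0591 and 0.0604) or IL4 vehicle replicate 2 (0.0737 and 0.0647), nor Iigp1 without IL4 vehicle replicate 3 (0.0721) or Gbp7 without IL4 RA replicate 3 (0.0666). The chemokine Cxcl10 changed by -0.57 (adjusted p = 0.067). It was called with the replicate block over the 6 IL4 libraries (adjusted p = 0.00243), with the block over 12 libraries (0.0495), without IL4 RA replicate 2 (0.0402) and without IL4 vehicle replicate 4 (0.00848). Guanylate-binding protein genes are close copies of each other, so the division of reads among them is uncertain.

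Of 48 tested type I interferon-stimulated genes 2 were called lower, Samd9l and Ifih1, and 0 higher, a share near the 5.18% of all genes tested that were called lower. A negative change was measured in 47 of them, and the median was -0.34. Neither was called without IL4 RA replicate 3, IL4 RA replicate 4, IL4 vehicle replicate 2 or IL4 vehicle replicate 3. With the replicate number as a block over the 6 IL4 libraries alone, 41 of the 48 were called lower, and 31 of the 41 interferon-gamma targets. Without the block, the 6 libraries alone gave 29 and 22, and the block over 12 libraries gave 3 and 14. The naive libraries differed widely in the type I genes, and their spread enters the fits over 12 libraries. Summed levels were 6092.5, 8811.3 and 10352 CPM in naive RA and 6423.4, 9249.3 and 8011.4 CPM in naive vehicle libraries.

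The size of this difference varied with IL4 vehicle replicate 4. That library was the lowest vehicle library in 38 of the 41 interferon-gamma targets and lay above every IL4 RA library in 25, whereas IL4 vehicle replicates 2 and 3 both did so in 35. Without it, 20 of the 41 were called lower and 0 higher and the median was -0.57, and of the 48 type I genes 3 were called lower with a median of -0.43. The changes without it were -2.07 for Cxcl9, -2.03 for Gbp4, -0.84 for Gbp5, -0.57 for Irf1, -1.01 for Socs1, -1.47 for Iigp1, -0.84 for Gbp7, -1.95 for Clic5 and -1.46 for Nos2, all called (adjusted p = 8.8e-05 to 0.0143). The count of interferon-gamma targets called lower was 6 without IL4 RA replicate 4 or without IL4 vehicle replicate 2, and 7 without IL4 vehicle replicate 3, and the median was -0.32 without IL4 vehicle replicate 2. The 1 member called higher was also not called without IL4 RA replicate 3 or 4 or IL4 vehicle replicate 2. In naive macrophages 0 of the 41 targets were called lower with RA and 1 higher, with a median change of 0.08, and 0 of the 41 were called in the test of the difference between IL4 and naive macrophages.

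**Figure D3:**
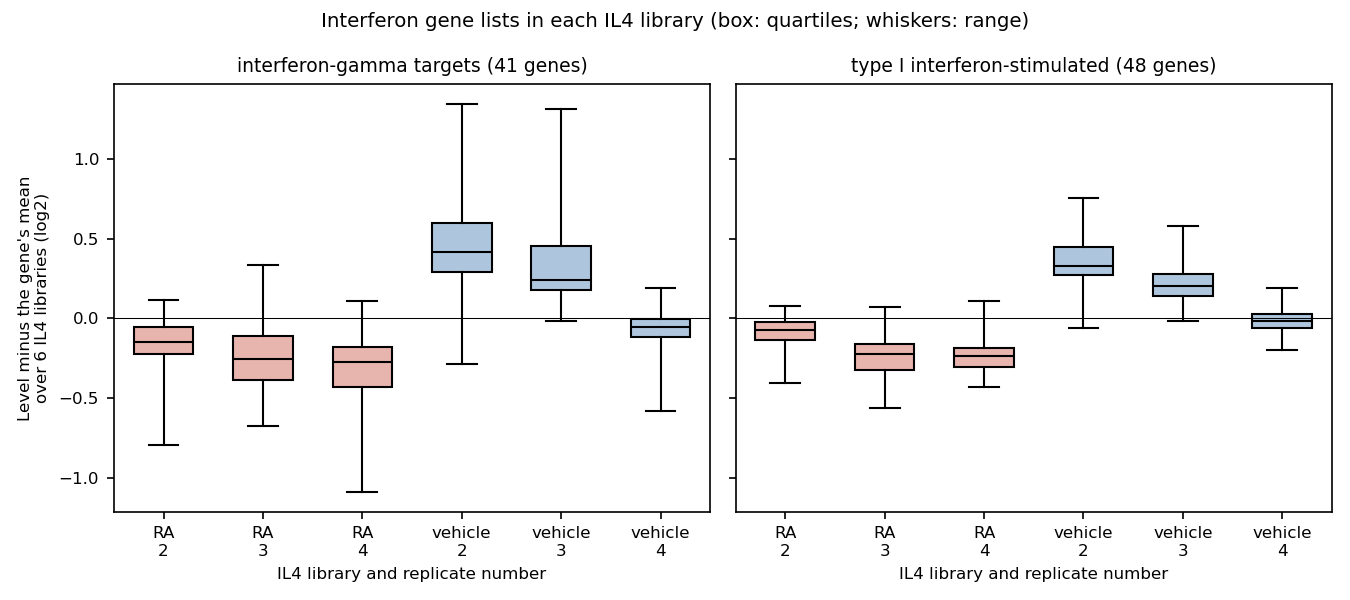
Level of each gene minus its own mean over the 6 IL4 libraries (log2), by library, for 41 interferon-gamma targets (left) and 48 type I interferon-stimulated genes (right), with boxes for quartiles, a line for the median and whiskers for the range. The IL4 RA medians are -0.15 to -0.28 (left) and -0.08 to -0.24 (right), while the IL4 vehicle libraries fall into replicates 2 and 3 above 0 and replicate 4 near 0.

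The Gbp5 promoter is shown as an example of the interferon elements in these genes. It covers 250 bases on the plus strand of GRCm38.p6 at chr3:142496684-142496933, from RefSeq, with a match to the interferon-stimulated response element pattern, GAAA repeated after 2 free bases and read here on the minus strand, in capitals at positions -165 to -156.
Gbp5: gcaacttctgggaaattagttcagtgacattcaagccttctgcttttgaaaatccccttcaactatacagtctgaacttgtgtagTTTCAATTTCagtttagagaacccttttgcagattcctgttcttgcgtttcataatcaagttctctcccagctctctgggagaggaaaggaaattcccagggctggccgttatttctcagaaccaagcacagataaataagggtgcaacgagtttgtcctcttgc

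The same window holds 2 matches to the gamma-activated pattern (TTC, 3 free bases, GAA), which reads the same on both strands, so each site was counted once. On both strands the response element pattern was in 13 of the 29 promoters of the interferon-gamma list (44.8%), against 340 of 9643 of all promoters (3.53%), and the gamma-activated pattern was in 13 of 29, against 698 of 9643 (7.24%). Since the list was written from known interferon targets, these shares describe the list and not the RA response. Over all genes called lower, 20 of 503 promoters held the response element pattern (3.98%) and 34 of 503 held the gamma-activated one (6.76%), near the shares of all promoters.

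Inflammatory genes driven by NF-kB were divided. Of 49 tested, 8 were called higher and 11 lower, with a median of -0.11. Il1a, the cytokine interleukin-1 alpha, measured 4.33, 4.35 and 4.07 log2 CPM in IL4 RA libraries and 2.48, 2.67 and 2.21 in IL4 vehicle libraries (change 1.80 ± 0.19, adjusted p = 4.19e-05). Tnf, the cytokine tumour necrosis factor, measured 7.54, 7.34 and 7.42 with RA and 8.35, 7.94 and 7.77 with vehicle (-0.59, adjusted p = 0.00549). These cytokines thus changed in opposite directions with no overlap between groups. The higher count was 5 without IL4 RA replicate 2, IL4 vehicle replicate 3 or IL4 vehicle replicate 4; the lower count was 5 without IL4 RA replicate 3, IL4 vehicle replicate 2 or IL4 vehicle replicate 3, and 4 without IL4 RA replicate 4.

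Immediate early genes, which respond within minutes to many stimuli, were called lower in 11 of 45 tested members and higher in 4, with a median of -0.11. Dusp1, a phosphatase that ends MAP kinase signals, measured 5.24, 5.40 and 5.33 log2 CPM with RA and 6.16, 6.09 and 5.98 with vehicle (-0.75, adjusted p = 1.45e-05). Fos, a subunit of AP-1, fell by 0.56 (adjusted p = 0.000311), the stress transcription factor Atf3 by 0.20 (adjusted p = 0.00902), and Gadd45b, a stress signalling protein, by 0.60 (adjusted p = 0.000668). Its relative Gadd45a rose by 0.81 (adjusted p = 2.66e-05). Calls on the lower side numbered 7 without IL4 RA replicate 4, IL4 vehicle replicate 2 or IL4 vehicle replicate 3.

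Genes of antigen presentation and costimulation were called higher in 4 of 30 tested members and lower in 6, with a median of -0.10. Icosl, the ligand of the T cell receptor ICOS, measured 5.52, 5.63 and 5.31 log2 CPM in IL4 RA libraries and 4.60, 4.60 and 4.11 in IL4 vehicle libraries (change 1.05 ± 0.12, adjusted p = 6.91e-05). Cd276, an immune checkpoint protein, fell by 0.65 (adjusted p = 0.000524) and Havcr2, the checkpoint receptor TIM-3, by 0.46 (adjusted p = 0.00764). Cd40, which receives T cell help, changed by -0.52 (adjusted p = 0.0141), and was not called without IL4 RA replicate 4 (adjusted p = 0.0601). The lower count was 2 without IL4 RA replicate 4 and 3 without IL4 vehicle replicate 2 or IL4 vehicle replicate 3.

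Receptors for dead cells and scavenger receptors were called higher in 9 of 37 tested members, Timd4 included, and lower in 4, with a median of 0.05. Timd4, a receptor for phosphatidylserine on dying cells, measured 1.23, 1.49 and 1.52 log2 CPM with RA and -0.04, -0.15 and 0.53 with vehicle (change 1.30 ± 0.24). The scavenger receptor Marco measured 5.22, 4.67 and 4.76 with RA and 4.09, 3.64 and 3.58 with vehicle (1.11 ± 0.23, adjusted p = 0.00681). Replicate 2 was the highest for Marco in both groups, and the groups did not overlap.

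Stab1, another scavenger receptor, rose by 0.64 (adjusted p = 0.000334), Treml2 by 0.92 (adjusted p = 0.0105) and the kinase receptor Mertk, which also binds dying cells through bridging proteins, by 0.26 (adjusted p = 0.00356). Anxa1, a phospholipid-binding protein, fell by 0.29 (adjusted p = 0.00384). Macrophage identity and Fc receptor genes had 7 of 31 tested members called higher and 3 lower, with a median of 0.09. The higher count of that list was 4 without IL4 RA replicate 4, and the lower count was 0 without IL4 RA replicate 3, IL4 RA replicate 4 or IL4 vehicle replicate 2, and 1 without IL4 vehicle replicate 3.

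Matrix genes were called higher in 7 of 43 tested members and lower in 2. Mmp9, a gelatinase, measured 7.57, 7.32 and 6.95 log2 CPM with RA and 6.57, 6.31 and 6.11 with vehicle (0.95 ± 0.18, adjusted p = 0.00378), with replicate 2 the highest and replicate 4 the lowest in both groups. Col4a2, a basement membrane collagen chain, rose by 1.18 (adjusted p = 0.000149) and Lox, which crosslinks collagen, by 0.52 (adjusted p = 0.00116). The matrix list's lower count was 1 without IL4 RA replicate 4, 4 with the replicate block over 12 libraries and 6 with the block over the 6 IL4 libraries.

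Vascular growth factors did not move together. Vegfa, the main growth factor of blood vessels, measured 7.71, 7.70 and 7.45 log2 CPM with RA and 6.47, 6.65 and 6.32 with vehicle (1.14 ± 0.15, adjusted p = 0.000193). Vegfc, the growth factor of lymphatic vessels, measured 2.08, 1.68 and 1.66 with RA and 2.79, 2.54 and 2.54 with vehicle (-0.82 ± 0.16, adjusted p = 0.00479). The groups did not overlap for either gene. Angptl2, an angiopoietin-like protein, fell by 0.57 (adjusted p = 0.00358) and Hgf, hepatocyte growth factor, by 0.48 (adjusted p = 0.00129). In the list 1 of 21 tested members was called higher and 5 lower; the lower count was 3 without IL4 RA replicate 3, IL4 RA replicate 4, IL4 vehicle replicate 2 or IL4 vehicle replicate 3.

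Glycolysis and hypoxia genes leaned upward, with 35 of 43 tested members positive, a median of 0.17, 9 called higher and 2 lower. Pfkl, a phosphofructokinase, measured 7.27, 7.49 and 7.03 log2 CPM in IL4 RA libraries and 6.36, 6.67 and 6.41 in IL4 vehicle libraries (0.78 ± 0.10, adjusted p = 0.000134). The phosphofructokinase Pfkp moved the other way, 7.82, 7.81 and 7.76 with RA and 8.13, 8.19 and 8.10 with vehicle (-0.34, adjusted p = 2.66e-05). Hk2, a hexokinase, rose by 0.44 (adjusted p = 0.000602) and Hif1a, the hypoxia transcription factor, by 0.43 (adjusted p = 0.000404). The higher count was 14 without IL4 vehicle replicate 3, 17 with the replicate block over 12 libraries and 19 with the block over the 6 IL4 libraries; the lower count was 1 without IL4 RA replicate 2, 3 or 4 or IL4 vehicle replicate 2 or 3.

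**Figure D4:**
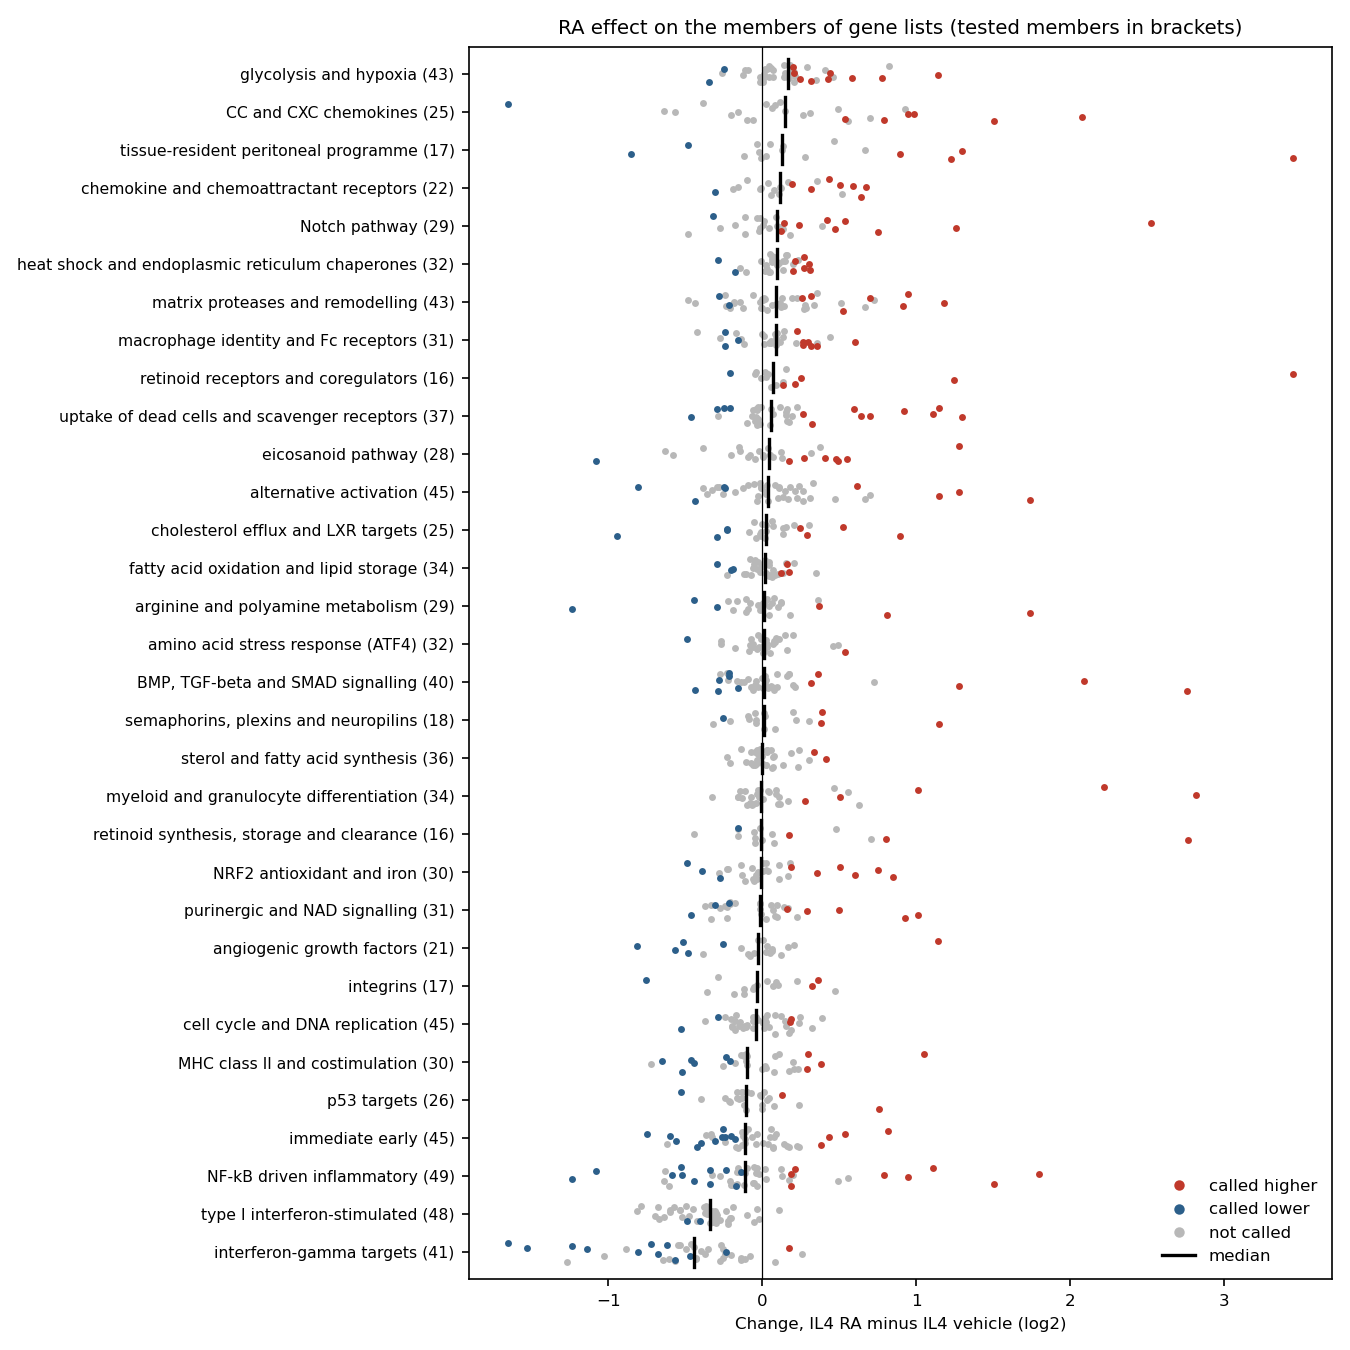
Change with RA in IL4 macrophages (log2, IL4 RA minus IL4 vehicle) for each tested member of 32 gene lists, red where called higher, blue where called lower and grey where not called, with a black bar for the list's median; lists run down the page by median. The medians lie from 0.17 for glycolysis and hypoxia to -0.44 for interferon-gamma targets, and most lists hold members called in both directions.

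Caveolae, the flask-shaped pits of the cell membrane, gave a pair of falls. Cav1, their main coat protein, measured 5.46, 5.55 and 5.63 log2 CPM in IL4 RA libraries and 6.43, 6.38 and 6.39 in IL4 vehicle libraries (change -0.85 ± 0.06, adjusted p = 3.55e-07). The adjacent gene Cav2 measured 6.32, 6.33 and 6.39 with RA and 6.82, 6.79 and 6.98 with vehicle (-0.52, adjusted p = 6.68e-06). Neither gene's libraries overlapped, and IL4 vehicle replicate 4 did not stand apart in them.

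The other falls among the 15 largest were those of single genes. Hr, a corepressor of nuclear receptors, measured 2.01, 2.18 and 2.29 log2 CPM with RA and 2.92, 3.11 and 3.46 with vehicle (-1.005, adjusted p = 0.00488). The thrombin receptor family member F2rl2 fell by 0.77 (adjusted p = 0.0017) and the early activation antigen Cd69 by 0.77 (adjusted p = 0.00517). Evi2 (-0.80) was not called without IL4 RA replicate 3 (adjusted p = 0.0514). Cracdl (-0.90) was not called without IL4 RA replicate 2 or 3 or IL4 vehicle replicate 2 (0.0549, 0.0515 and 0.0565), and the neuronal cytoskeleton gene Map2 (-0.86) was not called without IL4 RA replicate 3 or 4 or any 1 IL4 vehicle library (0.0565 to 0.126).

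The remaining large rises were also single genes. Palm, a membrane-bound protein that shapes cell processes, measured 2.76, 2.96 and 2.63 log2 CPM with RA and 0.68, 1.07 and 0.67 with vehicle (1.98 ± 0.13, adjusted p = 3.55e-07). Adgre5, the adhesion receptor CD97, measured 8.19, 8.26 and 8.18 with RA and 6.51, 6.71 and 6.74 with vehicle (1.56 ± 0.06, adjusted p = 1.09e-09). Both groups were tight and apart. Hivep2, a zinc finger transcription factor, rose by 1.54 (adjusted p = 3.97e-08) and Siglece, an inhibitory receptor for sialic acids, by 1.55 (adjusted p = 1.48e-06).

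Several genes called together were neighbours. Among 6189 pairs of neighbouring tested genes within 20 kb, 109 had both genes called in the same direction and 10 in opposite directions. Of the 109, 25 changed by at least 0.5 in both genes. Over all genes tested 6.5% were called higher and 5.18% lower. The pairs include overlapping genes and close copies, which may share reads. The count was not tested against pairs of genes that are not neighbours. Mfng and Card10 lie 1606 bases apart on chromosome 15. Hic1, at chr11:75161377-75170255 on the minus strand, overlaps Smg6, at chr11:74925854-75164448 on the plus strand, by 3072 bases.

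Smg6, an endonuclease of nonsense-mediated decay, measured 6.06, 6.26 and 6.06 log2 CPM in IL4 RA libraries and 4.34, 4.52 and 4.54 in IL4 vehicle libraries (1.66 ± 0.07, adjusted p = 5.78e-09). The library kit keeps the strand, but the strand setting of the quantification is not given in the sources used here, so reads from the overlap may have been counted for either gene. The antisense transcript Plxna4os1 (1.85, adjusted p = 1.77e-06) and Plxna4, a semaphorin receptor (1.15, adjusted p = 0.000379), overlap as well and have the same limit.

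Col4a2 and Rab20, a small GTPase of endosomes that rose by 1.57 (adjusted p = 2.16e-08), lie 4102 bases apart. The paired immunoglobulin-like receptor genes Pilra and Pilrb1 lie 15862 bases apart and rose by 0.84 and 1.31 (adjusted p = 2.19e-07 and 6.42e-07). Close copies make the division of reads uncertain for Pilrb1, and for Naip1, an inflammasome sensor with a change of 1.23 (adjusted p = 0.000535).

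The RA effect in IL4 macrophages was then set beside that in naive macrophages, which comes from other libraries. In naive macrophages 759 genes were called, 6.26% of genes tested, with 3.24% higher and 3.03% lower. The genes called in the same direction in both numbered 516, which is 36.4% of the IL4 calls and 68.0% of the naive calls. Of the 788 genes higher in IL4 macrophages 709 also had a positive change in naive macrophages, and of the 628 lower ones 590 had a negative change. Over all genes tested 49.6% had a positive change in naive macrophages. Across all 12116 genes the changes correlated at 0.60, as a description only, since genes are not independent replicates.

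The strongest rises were mostly shared. Of the 81 genes that rose by at least 1 in IL4 macrophages, all 81 had a positive change in naive macrophages and 63 were called higher there, with medians of 1.28 in IL4 and 0.87 in naive macrophages. The 14 genes that fell by at least 1 had a median of -1.15 in IL4 and -0.31 in naive macrophages, and 2 of them were called lower in naive macrophages. Both sets were chosen by the size of their IL4 change, which by itself makes the naive medians smaller. The filter also let in 10 of the 81 only through the IL4 RA group and 4 of the 14 only through the IL4 vehicle group. These medians therefore do not show a weaker response in naive macrophages. Rarb changed by 3.45 in IL4 and 4.11 in naive macrophages, Arg1 by 1.74 and 1.92, and Cxcl14 by 2.08 and 2.27.

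The test of the difference between the 2 changes called 46 genes, 0.38% of genes tested, of which 41 (0.338%) had the more positive change in IL4 macrophages and 5 (0.0413%) the more negative one. Mfng changed by 2.53 in IL4 and 0.51 in naive macrophages, a difference of 2.03 (adjusted p = 1.91e-06). Its naive levels were 3.18, 3.26 and 3.32 log2 CPM with RA and 2.69, 2.77 and 2.78 with vehicle, so the IL4 vehicle libraries were the lowest of the 4 groups and the IL4 RA libraries the highest. Smg6 differed by 1.53 (adjusted p = 5.78e-06), with a naive change of 0.13 that was not called.

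Smad3 differed by 0.88 (adjusted p = 0.0109). Its naive levels, 5.31, 5.33 and 5.30 log2 CPM with RA and 4.17, 4.00 and 4.15 with vehicle, show that the IL4 RA libraries overlapped the naive vehicle libraries, with the IL4 vehicle libraries below and the naive RA libraries above. Sdc1, a cell surface proteoglycan, measured 8.92, 9.15 and 8.97 in IL4 RA libraries and 8.06, 8.14 and 8.09 in IL4 vehicle libraries and changed by 0.92 (adjusted p = 2.52e-06), against 0.08 in naive macrophages, a difference of 0.83 (adjusted p = 0.00336). Among the named genes called for this difference Ptgs1 alone had the larger rise in naive macrophages, 1.28 in IL4 and 1.79 in naive, a difference of -0.52 (adjusted p = 0.019). That call was lost without IL4 RA replicate 2 (0.0536), IL4 RA replicate 3 (0.0519) or IL4 vehicle replicate 3 (0.0526). The count of 46 was 78 with the replicate number as a block over 12 libraries, 15 without the intensity trend, 22, 21 and 30 without IL4 RA replicate 2, 3 or 4, and 20 without IL4 vehicle replicate 3.

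2 genes were called in opposite directions. Abcb1b, a drug efflux pump, changed by 0.30 in IL4 and -0.33 in naive macrophages (difference 0.63, adjusted p = 0.0325), and Inf2, an actin-assembling formin, by 0.33 and -0.25 (difference 0.58, adjusted p = 0.0232). The IL4 call of Abcb1b was lost without IL4 RA replicate 2 (adjusted p = 0.0537) or IL4 vehicle replicate 3 or 4 (0.104 and 0.08). For Cxcl9 and Gbp4, which fell in IL4 macrophages, the naive changes were 0.03 and -0.03, and the difference was not called for either gene (adjusted p = 0.17 and 0.35).

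**Figure D5:**
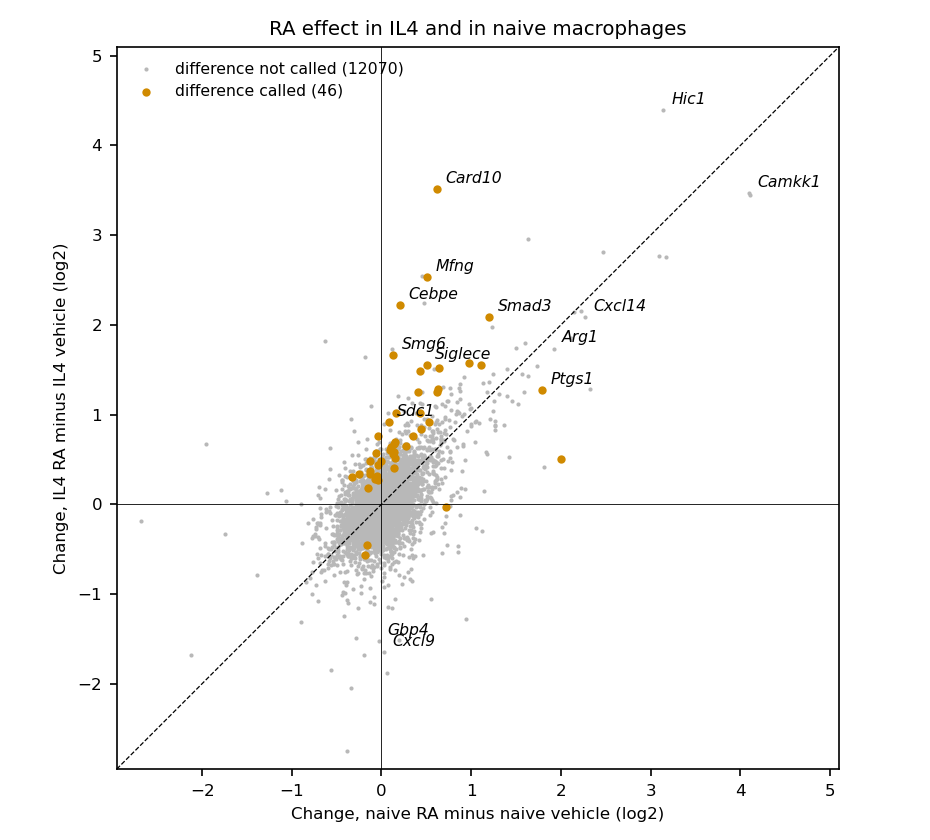
Change with RA in IL4 macrophages (log2, vertical axis) against that in naive macrophages (log2, horizontal axis), 1 point per tested gene, with the 46 genes whose changes differed in orange and a dashed line where both are equal. Hic1, Camkk1, Cxcl14 and Arg1 rise in both, while Mfng, Cebpe and Smg6 lie far above the line.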

How the data were processed

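RNA was sequenced from 12 macrophage libraries with a stranded mRNA kit, per the labels' protocols. The deposited values are log2 CPM that the authors made from Salmon 0.13.1 estimates on GRCm38 with TMM scaling in edgeR 3.32.1, per the submitters' processing notes and the file header, so no count test was run. Every library shares a lowest value of -3.67 log2 CPM, and the low values are whole multiples of a common step in only 15.2% to 29.0% of cases (tolerance 0.05), so the depth is unknown.

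A linear model with 1 mean per group was fitted to the 12 libraries in limma 3.58.1 (R 4.3.3) with an intensity trend, two-sided, with Benjamini-Hochberg adjustment over the 12116 genes tested. It was tested on simulated data. The contrasts were IL4 RA minus IL4 vehicle, naive RA minus naive vehicle, and their difference. The labels state no pairing of libraries. Deviations of same-numbered IL4 RA and IL4 vehicle libraries from their group means correlated at 0.245, 0.193 and 0.128 across genes, so pairing by number is possible. The main fit had no replicate term and did not use such a pairing. Fits with the replicate number as a block are given as alternatives, and some list counts differed much between them. Alternatives were the block, library weights, no trend, other filters and scalings, the IL4 libraries alone and leaving out each IL4 library in turn. No naive library was left out.

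Genes were named as the 20 largest rises and 15 largest falls among called genes of at least 2 log2 CPM without overlap, as the 3 largest called changes of each of 39 gene lists, and from fixed markers. Genes named outside that rule, such as Card10, Ntn4, Smg6, Cxcl1, Tnf, Fos, Notch1, Gbp5, Irf1, Abcb1b and Inf2, and the NF-kB and interferon promoter patterns were chosen after their values were seen. The members and lists were chosen with earlier results of these data known. Promoters, strands and gene positions are from RefSeq on GRCm38.p6, and 9643 tested genes had a promoter.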

Additional observations from a re-analysis of the deposited data

Results flagged for a closer look

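Named genes whose RA effect differed between IL4 and naive macrophages by the test of that difference (limma, adjusted p under 0.05) are given with the difference on the log2 scale, IL4 minus naive. The calls for 7 genes held when any 1 IL4 library was left out: Mfng 2.03, Smg6 1.53, Smad3 0.88, Ndst1 0.87, Sdc1 0.83, Sesn1 0.80 and C5ar1 0.53. For Sesn1, a stress-induced protein of the sestrin family, the RA effect was 0.76 in IL4 and -0.03 in naive macrophages. Ndst1, an enzyme of heparan sulfate synthesis, changed by 1.52 in IL4 and 0.64 in naive macrophages. Without the intensity trend Sesn1 was not called (adjusted p = 0.0608).

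The other 11 calls were lost when at least 1 IL4 library was left out. Card10 differed by 2.90 and Cebpe by 2.01. Both entered the test only through the IL4 RA libraries, where they were high, so their calls are no evidence and no p is given. For Card10 the 3 naive vehicle libraries are listed at the table's lowest value. The Cebpe call was lost without IL4 RA replicate 2, 3 or 4 or IL4 vehicle replicate 2 or 3. Siglece differed by 1.04 and was lost without IL4 vehicle replicate 3 (adjusted p = 0.0525). The differences were 0.66 for Ltbp3, 0.63 for Nrip1, 0.59 for Rab20, 0.44 for the adhesion receptor Adgre5, 0.40 for Pilra and -0.52 for Ptgs1. Abcb1b differed by 0.63 and was lost without IL4 RA replicate 3 or IL4 vehicle replicate 3 or 4 (0.0519, 0.0931 and 0.0585), and Inf2 differed by 0.58 and was lost without IL4 RA replicate 2 or 3 (0.0536 and 0.0519).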

How the results depend on the processing

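Of 160 named genes, 148 were called. Of these, 122 kept their call in each of the 17 alternative settings in which they were tested, 26 lost it in at least 1, and 0 changed direction. Genes under the filter at 2 log2 CPM, such as Card10, Ntn4, Cyp26b1 and Timd4, were not tested in that setting. Many genes were named because they were called, so keeping the call is partly built in. The count of called genes was 894 to 1446 with 1 IL4 library left out, with 549 to 784 higher and 345 to 662 lower. The difference between IL4 and naive macrophages, 46 genes, was 20 to 67 with 1 IL4 library left out, 15 without the intensity trend, 103 with library weights and 78 with the replicate block over 12 libraries. The naive count, 759, was 676 to 885 with 1 IL4 library left out and 1950 with library weights. No naive library was left out, so how far either count rests on a single naive library was not tested. With the replicate block 1664 genes were called over 12 libraries, 1395 of them among the 1416, and 1530 over the 6 IL4 libraries. Centring each library on its median moved the median change by -0.01 and gave 711 genes higher and 752 lower, in place of 788 and 628. The cause of these moves was not tested. The unknown depth limits the genes near the lowest value, whose median SE was 0.20 under 2 log2 CPM in IL4 vehicle, against 0.05 at 8 or more.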

Other observations

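Several enzymes that build sugar chains on the cell surface rose in IL4 macrophages with RA. Ndst1, which sulfates heparan chains, measured 6.46, 6.51 and 6.43 log2 CPM in IL4 RA libraries and 4.86, 4.97 and 5.03 in IL4 vehicle libraries (change 1.52 ± 0.05, adjusted p = 9.22e-10, limma). The sialyltransferase St6gal1 measured 6.50, 6.43 and 6.42 with RA and 5.02, 5.31 and 5.39 with vehicle (1.21, adjusted p = 2.54e-07). No library of one group reached the other for either gene. The chondroitin sulfotransferase Chst15 rose by 1.25 (adjusted p = 0.000344) and the sialyltransferase St8sia6 by 0.91 (adjusted p = 9.03e-05). These genes were picked after their values were seen, and no list of such enzymes was tested.

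Metal and redox genes were called higher in 6 of 30 tested members and lower in 3, beside 6.5% and 5.18% of all genes tested. The metallothionein Mt2 rose by 0.85 (adjusted p = 0.00291), glutathione reductase Gsr by 0.76 (adjusted p = 4.73e-07) and the metal transporter Slc11a1 by 0.50 (adjusted p = 2.45e-06), while the cystine transporter Slc7a11 fell by 0.49 (adjusted p = 0.00137). The lower count was 5 with the replicate block. Among purinergic genes, 5 of 31 were called higher and 3 lower. The ATP-gated channel P2rx7 measured 6.90, 6.86 and 6.83 log2 CPM with RA and 6.35, 6.36 and 6.38 with vehicle (0.50, adjusted p = 1.74e-06), and Entpd1, which breaks down extracellular ATP, fell by 0.46 (adjusted p = 3.12e-05). The lower count of that list was 8 with the replicate block over the 6 IL4 libraries.

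Of the cholesterol efflux genes, 4 of 25 were called higher and 4 lower. The transporter Abca1 measured 8.67, 8.39 and 8.42 log2 CPM with RA and 7.90, 7.97 and 8.03 with vehicle (0.52, adjusted p = 0.000209), and Apoc2, a lipoprotein protein, rose by 0.90 (adjusted p = 0.00281). The transporter Abcg1 was called lower, with a change of -0.29 (adjusted p = 0.0298, limma). That call was lost without IL4 RA replicate 2, 3 or 4 (adjusted p = 0.0915, 0.0567 and 0.0618) or IL4 vehicle replicate 3 or 4 (0.108 and 0.102). The lower count of the list was 0 to 2 without any 1 of the 6 IL4 libraries. Genes of sterol and fatty acid synthesis were called higher in 2 of 36 tested members and lower in 0, beside 6.5% and 5.18% of all genes tested.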
